A study of Homo sapiens with 2 samples.

Results

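RNF144B and 9 further genes of the RBR (RING-between-RING) ubiquitin ligases were followed on 2 expression arrays of DLD-1, a human line from a colorectal carcinoma. Every probe set that the array's annotation ties to RNF144A, RNF144B, RNF14, RNF19A, RNF19B, RNF31, RNF216, ARIH1, ARIH2 or RBCK1 alone was taken, which gave 33 of the 54675 probe sets and 10 of 19775 named genes. The family was chosen by the large ratio of RNF144B between these same 2 arrays, so its values and the family's counts are given as a description and not tested. Both cultures held a stably integrated wild-type p53 transgene under tet-off control, which tetracycline silences, and DLD-1 cells have a mutated p53 of their own. The p53 off array came from cells with tetracycline, and the p53 on array from cells without it for 9 h. Each condition had 1 array, so no replicate spread, test or p-value between conditions was possible. The sources used here do not say whether the line was 1 clone.

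RBR ligases take ubiquitin from an E2 enzyme onto a cysteine of their second RING domain before passing it to a substrate, which sets them apart from plain RING ligases that only hold the E2 and the substrate together. RNF144B, also called p53RFP, IBRDC2 or PIR2, is a known p53 target and has been reported to act on the cell cycle inhibitor p21 and on the death factor BAX. RNF31 and RBCK1 build linear ubiquitin chains that serve NF-kB signalling, and the Ariadne ligases ARIH1 and ARIH2 work on cullin-RING ligases that carry NEDD8.

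The promoter sequences of the members with the 3 largest ratios are shown because the comparison concerns a transcription factor. RefSeq windows (GRCh38.p14) were found for 8 of the 10 members, 11 windows in all, and only the 250 bases before each annotated start were read. All 4 windows below lie on the plus strand. Capitals mark 3 motifs: the p53 half-site, which is 3 purines, C, 2 bases that are A or T, G and 3 pyrimidines, with C and G fixed and at most 1 mismatch elsewhere; the letters TATAAA; and the letters GGGCGG, each searched on both strands. No base was shared by 2 of these motifs.
RNF144B, chr6:18387100-18387349: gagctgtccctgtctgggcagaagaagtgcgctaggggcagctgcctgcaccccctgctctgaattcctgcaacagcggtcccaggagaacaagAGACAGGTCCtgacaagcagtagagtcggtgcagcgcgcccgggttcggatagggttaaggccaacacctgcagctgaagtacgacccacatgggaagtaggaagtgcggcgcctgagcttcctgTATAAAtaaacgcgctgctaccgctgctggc
RNF144A, first start, chr2:6917162-6917411: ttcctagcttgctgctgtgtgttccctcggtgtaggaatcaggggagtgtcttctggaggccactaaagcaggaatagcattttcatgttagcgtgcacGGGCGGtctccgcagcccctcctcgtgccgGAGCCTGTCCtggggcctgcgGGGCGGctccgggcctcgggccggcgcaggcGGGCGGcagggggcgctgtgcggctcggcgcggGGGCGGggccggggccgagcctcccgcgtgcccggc
RNF144A, second start, chr2:6932834-6933083: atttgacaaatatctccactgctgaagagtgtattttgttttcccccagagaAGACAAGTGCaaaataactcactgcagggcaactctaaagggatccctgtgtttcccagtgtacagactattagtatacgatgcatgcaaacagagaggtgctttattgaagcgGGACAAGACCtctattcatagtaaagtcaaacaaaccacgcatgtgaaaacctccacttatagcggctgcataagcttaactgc
ARIH1, chr15:72474080-72474329: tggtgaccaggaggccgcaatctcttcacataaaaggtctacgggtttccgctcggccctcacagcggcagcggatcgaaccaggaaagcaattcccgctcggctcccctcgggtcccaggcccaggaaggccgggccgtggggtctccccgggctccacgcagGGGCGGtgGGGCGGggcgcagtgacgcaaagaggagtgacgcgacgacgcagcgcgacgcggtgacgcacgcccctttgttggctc

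The RNF144B window held TATAAA 31 to 26 bases before the start, a motif present in 10.7% of all 35116 windows, and RNF144B was the only one of the 8 members with it. It held 1 p53 half-site with 1 mismatch, 156 to 147 bases before the start. Half-sites at that tolerance occurred in 39.3% of all windows. Among the other members they occurred before both RNF144A starts, before ARIH2 and RNF216, and before 1 of the 2 starts of RNF14, but not in the windows of ARIH1, RBCK1 or RNF31. No member window held a half-site without mismatch, which 5.57% of all windows did, nor a pair of adjoining half-sites with at most 3 mismatches, which 0.914% did. The letters CATG, searched apart from the half-sites, stood in the windows of RNF144B, RNF144A and RNF14, against 47.6% of all windows. None of the half-sites found in the member windows held CATG. The G and C content was 59.6% before RNF144B, 72% and 42.4% before the first and second start of RNF144A, and 68.4% before ARIH1, against a median of 58% over all windows. GGGCGG, the letters of a GC box, occurred 4 times before the first RNF144A start and 2 times before ARIH1, but not before RNF144B; 42.6% of all windows held it. These are matches of letters and not shown binding sites.

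Values are linear MAS5 signals, and each log2 ratio divides p53 on by p53 off. Pairs of signals are given with p53 off first. Signals under a floor of 112.4, the median of all signals, were raised to it. A ratio with 1 signal under the floor is therefore a bound and is written "at least", and with both under it no ratio was taken. Ranges over the probe sets of a gene include such bounds. Of the 33 probe sets, 22 were above the floor on both arrays, 6 gave a bound and 5 gave no ratio. The brightest probe set by mean over both arrays stood for each gene. The spread between probe sets of the same gene, an SD of 0.66 on the log2 scale over 6680 genes, was the only yardstick for error, and it leaves out any spread between cultures. In a bulk extract, a transcript present in fewer cells and one less abundant per cell cannot be told apart.

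The arrays also differed in their controls. The 18 hybridization spike-ins read a median of 1.89 times brighter with p53 on, and the 3' over 5' signal ratio of beta-actin was 1.37 with p53 off and 7.29 with p53 on (GAPDH 0.97 and 1.77). Scaling to the spike-ins moved the median of all measured genes by -0.80, so every direction here is relative to the median gene (0.0035). Colon epithelial markers were measured for 9 of 10 genes, at summed signals of 107372 and 173990, and KRT20 was under the floor on both arrays. Of the other markers, 2 of 8 leukocyte, 5 of 7 fibroblast and 4 of 6 endothelial genes were measured, at summed signals between 392 and 593 with p53 off and between 688 and 963 with p53 on. None was at 0, while PTPRC, which marks leukocytes, and COL1A1, which marks fibroblasts, were under the floor on both arrays. The part of these differences in the results was not tested.

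With p53 on, 5 of the 10 RBR genes passed 1.5-fold upward and none passed it downward. The higher genes were RNF144B, RNF144A, ARIH1, RNF19A and RNF19B. Of all 13915 genes with a ratio, 25.9% passed it upward and 25.9% downward. The members' median log2 ratio was 0.57, and 0.25 without RNF144B. At 2-fold the counts were 4 upward and none downward, against 15.3% and 13.5% of all genes. By probe set, 13 of the 28 with a ratio passed 1.5-fold upward and 4 downward, against 24.6% and 25.7% of all 25962 measured probe sets with 1 gene. Of the 13, 4 were under the floor with p53 off and had a ratio only through their p53 on signal. The 4 lower ones belonged to ARIH2, RBCK1 and RNF216. After scaling by the spike-ins, 3 genes (RNF144B, RNF144A and ARIH1) were higher and 4 lower, where 9.55% of all genes were higher and 58.7% lower.

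**Figure D1:**
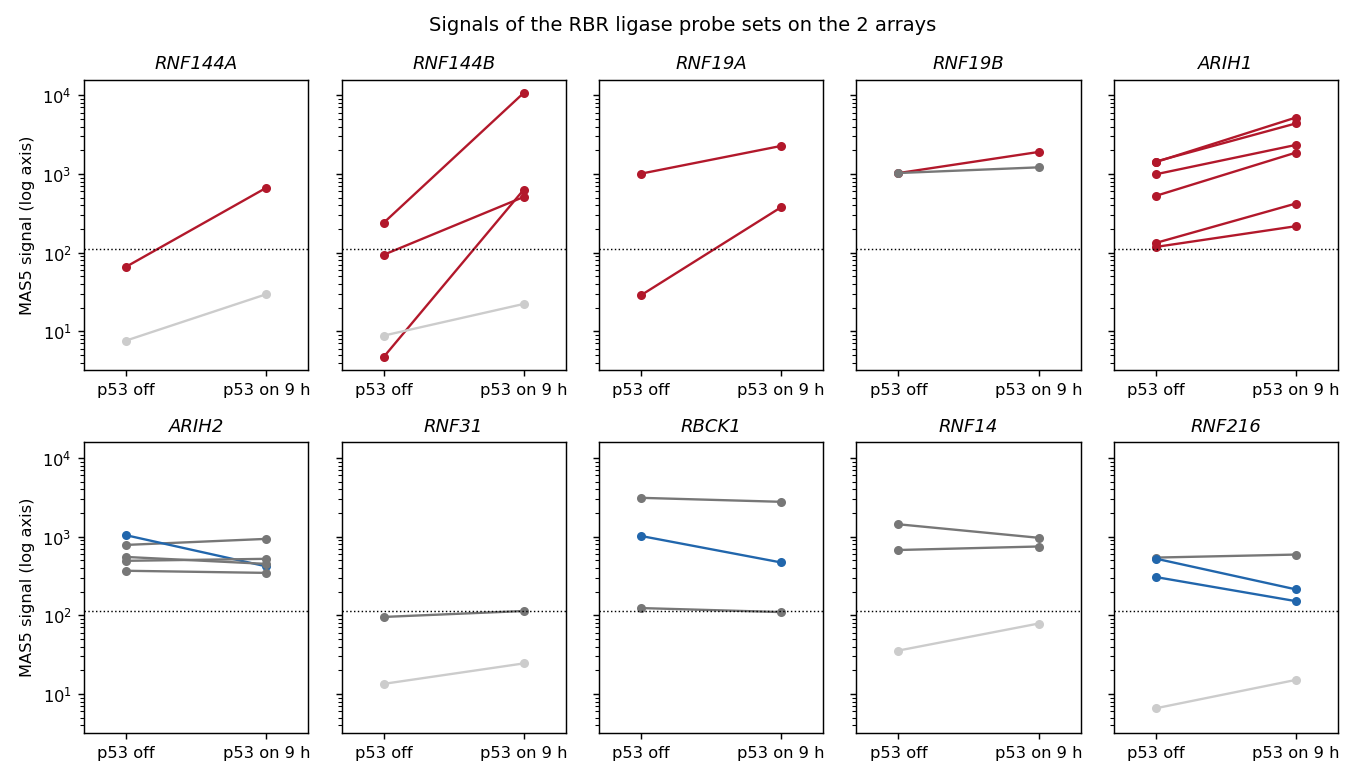
MAS5 signal (log axis) of each probe set of the 10 RBR genes on the p53 off and the p53 on array, 1 line per probe set and 1 array per condition. Red lines are at least 1.5-fold higher with p53 on, blue at least 1.5-fold lower, dark grey between, and pale grey under the floor of 112.4 (dotted) on both arrays; all 6 lines of ARIH1 are red, while ARIH2, RBCK1 and RNF216 mix blue and grey.

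The RNF144 pair had the largest ratios. These ligases are held in membranes by a segment near their C-terminus. For RNF144B, probe set 228153_at read 239 (p53 off) and 10705 (p53 on), a 44.8-fold difference and a log2 ratio of 5.49. Probe set 235549_at read 4.70 and 630.5, so RNF144B was at least 5.61-fold higher on it. On 239012_at the signals were 93.8 and 509.8, at least 4.54-fold higher. The p53 off signal was thus above the floor on 228153_at alone. The remaining probe set, 239704_at, stayed under the floor at 8.80 and 22.2 and gave no ratio. All 3 RNF144B ratios were upward, with 5.49 on the brightest probe set and at least 2.49 and at least 2.18 on the others. With these bounds included, the range of 3.30 was as wide as or wider than in 99.4% of genes with several measured probe sets. By its brightest probe set RNF144B ranked 7th from the top of all measured genes.

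RNF144A, the paralogue of RNF144B, is reported to act on the DNA repair kinase DNA-PKcs. Its probe set 204040_at read 66.2 (p53 off) and 667 (p53 on), so RNF144A was at least 5.93-fold higher, a log2 ratio of at least 2.57. The other, 1570051_at, was under the floor on both arrays, at 7.62 and 29.6. RNF144A thus rests on 1 probe set whose p53 off signal was under the floor. Its bound was 1.98 with the floor at the 60th percentile, and with no floor and a pseudocount of 1 its ratio was 3.31. PRKDC, which encodes DNA-PKcs, had log2 ratios of -0.12 and -1.02 on its measured probe sets.

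The dorfin-type genes RNF19A and RNF19B, which also encode membrane-anchored ligases, were higher by smaller amounts. RNF19A, the gene of dorfin, a ligase reported to act on mutant SOD1, read 1008 and 2269 on 223085_at, 2.25-fold higher. On 220483_s_at the RNF19A signals were 28.7 and 377, at least 3.36-fold higher. Both RNF19A probe sets were thus higher with p53 on. RNF19B, known from natural killer cells as NKLAM, was 1.85-fold higher on 213038_at, at 1025 and 1901, but its log2 ratio became -0.028 with scaling to the spike-ins. Its other probe set, 36564_at, read 1027 and 1212, a log2 ratio of 0.24 and short of 1.5-fold. SOD1 itself read 24063 and 27707, a log2 ratio of 0.20.

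The 2 Ariadne genes had unlike values. ARIH1, the human homologue of fly Ariadne and a partner of neddylated CUL1, was at least 1.5-fold higher on all 6 of its probe sets. The brightest, 201880_at, read 1415 (p53 off) and 5213 (p53 on), 3.68-fold higher. ARIH1 read 1438 and 4388 on 201881_s_at, 990.5 and 2337 on 201878_at, and 526 and 1868 on 201879_at. The dimmest, 1558401_at and 241658_at, read 133 and 421, and 118 and 216. The 6 log2 ratios of ARIH1 ran from 0.88 to 1.88, a range of 1.01 against a median of 0.83 for genes with several measured probe sets. With scaling to the spike-ins 5 stayed upward, from 0.32 to 0.96, and that of 241658_at was -0.043. The p53 off signal of 241658_at was just above the floor. Its ratio was 0.36 with the floor at the 60th percentile and 0.51 with a pseudocount equal to the floor, both short of 1.5-fold. Of the 8 members with several measured probe sets, RNF144B, RNF19A and ARIH1 passed 1.5-fold upward on every one, beside 11.3% of all 6680 such genes, but all signals were above the floor for ARIH1 alone of these. No member passed it downward on every one, against 10.4% of such genes, and none passed it in both directions, against 6.60%.

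ARIH2, also called TRIAD1, a partner of neddylated CUL5, had no common direction. Its brightest probe set, 201230_s_at, read 784 and 936, a log2 ratio of 0.25. On 201229_s_at ARIH2 was 2.49-fold lower, at 1041 and 419. The remaining 3 read 493 and 522, 552 and 449.9, and 368 and 346, with log2 ratios of 0.08, -0.29 and -0.09. Thus 4 of the 5 ARIH2 probe sets were within 1.5-fold and 1 was lower. The range of 1.57 was as wide as or wider than in 83.2% of genes with several measured probe sets. The position of each probe set along its transcript was not used here, so the part of the 3' to 5' difference between the arrays in such splits was not tested.

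**Figure D2:**
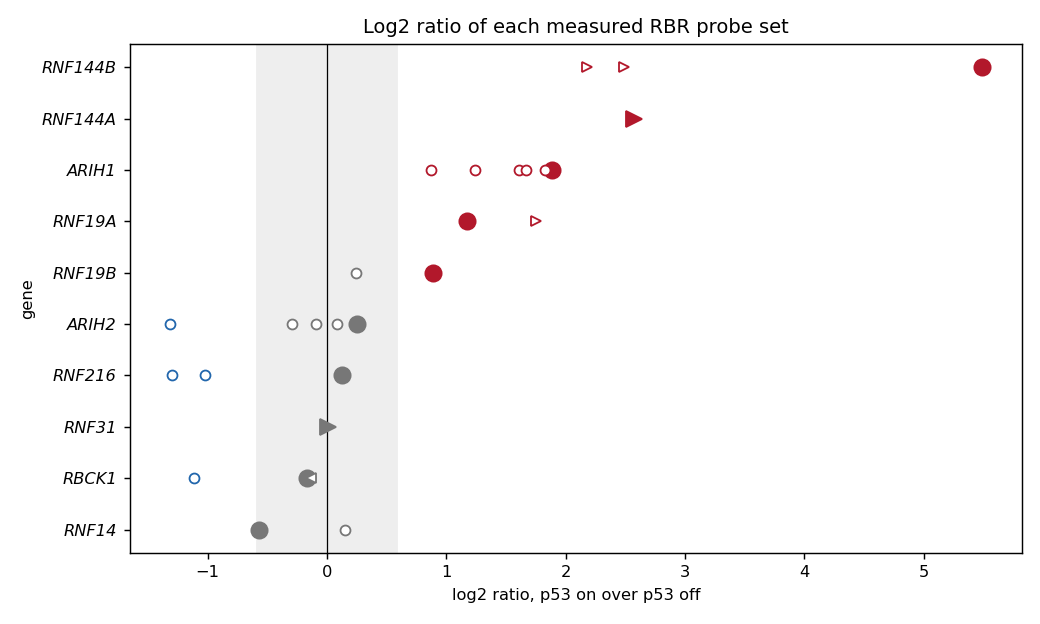
Log2 ratio (p53 on over p53 off) of each measured probe set, by gene, ordered by the brightest probe set (large filled symbols); circles are ratios with both signals above the floor, right-pointing triangles are lower bounds and left-pointing ones upper bounds. The grey band is within 1.5-fold, and RNF144B at 5.49 stands apart while ARIH2, RNF216, RBCK1 and RNF14 lie within the band or to its left.

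Of the ligases of linear ubiquitin chains, RBCK1 was not higher on any probe set and RNF31 could hardly be measured. RNF31, which encodes HOIP, the catalytic subunit, was near or under the floor, at 95.3 and 113 on 231635_x_at and at 13.4 and 24.4 on 225122_at. Its ratio of at least 1.01-fold carries no information on direction. A further probe set, 220788_s_at, is annotated to both RNF31 and its chromosomal neighbour IRF9 and was left out by the rule. It read 236 and 26.4, at least 2.10-fold lower, and the probe set of IRF9 alone read 248 and 156, 1.59-fold lower. RBCK1, which encodes the partner HOIL-1, read 3113 and 2771 on its brightest probe set, 221827_at, a log2 ratio of -0.17. On 207713_s_at RBCK1 was 2.17-fold lower, at 1019 and 469, and on 229920_at it read 124 and 109.9. All 3 RBCK1 ratios were below 0, and 1 passed 1.5-fold.

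RNF14, known as ARA54, a coactivator of the androgen receptor and a sensor of stalled translation, had ratios of either sign, all within 1.5-fold. On 201823_s_at RNF14 read 1435 and 967, 1.48-fold lower and just short of 1.5-fold, and on 201824_at 676 and 749, a log2 ratio of 0.15. The range of 0.72 was below the median of 0.83 for genes with several measured probe sets. The last RNF14 probe set, 243345_at, was under the floor at 35.6 and 78.5. RNF14 has processed copies elsewhere in the genome, so signal from near-identical sequence cannot be told apart. RNF216, also called TRIAD3, a ligase reported to act on beclin 1 and on immune receptors, was split by probe set. It read 542 and 591 on 227065_at, a log2 ratio of 0.13. On 218426_s_at RNF216 was 2.46-fold lower, at 525 and 213, and on 218425_at 2.02-fold lower, at 306 and 151. The remaining one, 1563361_at, was under the floor at 6.58 and 15.1. The mean of the 3 measured RNF216 ratios was -0.73, so its sign depends on the probe set, and RNF216 has a transcribed pseudogene, RNF216P1, whose signal cannot be told apart.

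In the order of gene-level log2 ratios, RNF144B stood first at 5.49 on its brightest probe set. RNF144A had only a bound, at least 2.57, and its distance from RNF144B and ARIH1 was therefore not fixed. ARIH1, RNF19A and RNF19B followed at 1.88, 1.17 and 0.89. ARIH1 and RNF19A were 0.71 apart, and RNF19A and RNF19B 0.28. The SD of 0.66 between probe sets of a gene is that of a single probe set about its gene's mean. A gap between genes has a wider spread, so neither distance fixes an order. ARIH2, RNF216, RBCK1 and RNF14 lay between 0.25 and -0.57, each within that SD of its neighbour, and RNF31, with a bound at the floor, had no fixed place.

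**Figure D3:**
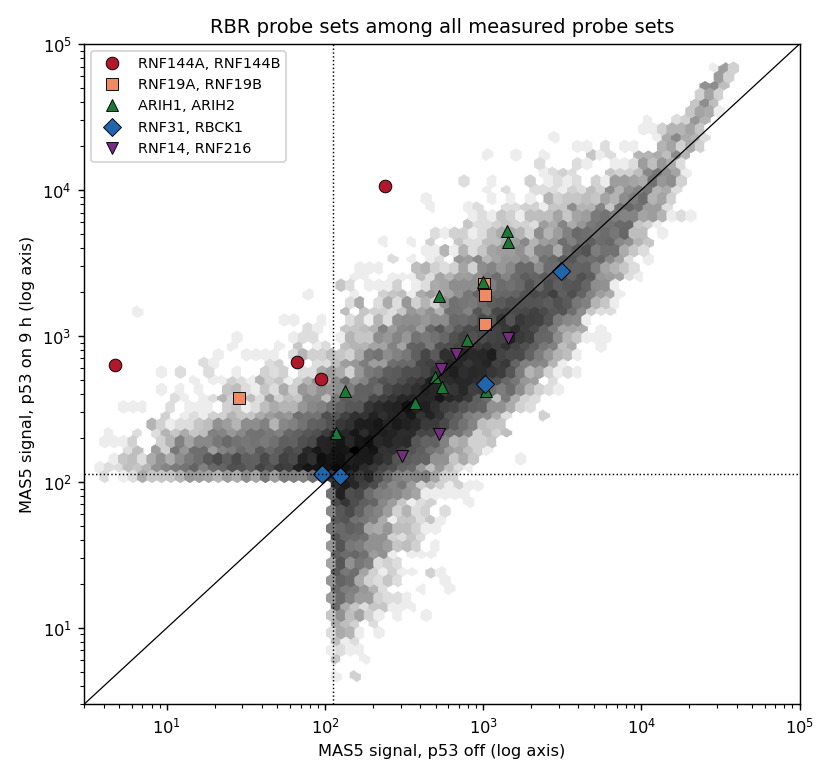
MAS5 signal on the p53 on array against the p53 off array (both log axes) for the measured probe sets with 1 gene (grey, darker where more), with the RBR probe sets as coloured symbols by architecture. The solid line marks equal signals and dotted lines the floor of 112.4; the RNF144B probe set at 239 and 10705 lies at the upper edge of the cloud.

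The RBR genes outside the chosen 10 gave no shared direction. ANKIB1, CUL9 and RNF217 were measured, with 1 past 1.5-fold upward and 1 downward, beside 25.9% of all genes each way. RNF217 had log2 ratios of 0.67 and -0.58 on its measured probe sets. ANKIB1, of the Ariadne type, was between the thresholds at 1183 and 1576 (0.41), and its 3 probe sets ran from 0.41 to 0.78. CUL9, a cytoplasmic p53-binding protein also called PARC, was 2.14-fold lower at 314 and 146. Over the 13 measured RBR genes, 6 passed 1.5-fold upward and 1 downward, beside the same 25.9%, and the median was 0.41. Of the 6, 5 were the chosen members given above.

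Among all 62 measured genes with numbered RNF symbols, which are RING finger genes of many kinds, RNF144B was highest, and RNF24 and RNF144A came next, in an order that the floor under RNF144A leaves unsettled. RNF24 was 6.92-fold higher at 384 and 2656, with its 4 probe sets from 0.75 to 2.90. At the other end were RNF26 (14.8-fold lower, 1704 and 115), RNF41 (4.40-fold lower) and RNF220 (3.80-fold lower). RNF19A and RNF19B stood 10th and 14th, RNF216 and RNF14 27th and 43rd. Of the 55 that are not members, 14 (25.5%) passed 1.5-fold upward and 19 (34.5%) downward, and the median was -0.27. The share of all genes was 25.9% each way, so the upward share was near it.

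The E2 enzymes that charge RBR ligases were largely outside the measurement, since UBE2L3, UBE2D1, UBE2D2 and UBE2D3 had no probe set used here with the symbol alone. UBE2L6, the interferon-induced E2 of this pair of UBE2L enzymes, read 481 and 486, a log2 ratio of 0.015. UBE2D4 had a ratio of 0.37 on its brightest probe set and a range from -0.32 to 0.45. Both were within 1.5-fold.

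Of 7 measured genes listed as linear ubiquitin partners, 4 passed 1.5-fold upward and none downward, beside 25.9% of all genes each way. The median was 0.90. Scaled by the spike-ins, 1 passed upward and 2 downward, beside 9.55% and 58.7% of all genes. On the smallest absolute log2 ratio of each gene 1 passed upward, beside 18.3% of all genes. CYLD, a deubiquitinase that removes linear and K63-linked chains, was 3.06-fold higher at 179 and 547, though its 6 measured probe sets ran from -0.25 to 1.63. OTULIN, the deubiquitinase specific for linear chains, was 2.72-fold higher at 544 and 1480 on its brightest probe set and had a ratio of 0.19 on another. TNIP1, which binds linear chains, was 1.87-fold higher. TNFAIP3, which encodes A20, had ratios of 0.90 and -0.04. OTULINL, also counted in this list, had 0.35 on its brightest probe set, and its 3 probe sets ran from 0.35 to 0.60. SHARPIN, the accessory subunit of the linear ubiquitin ligase, had a ratio of 0.066. IKBKG, which encodes NEMO, a reader of these chains, had the lowest ratio on its brightest probe set, -0.26, and -0.68 on its other.

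Cullins and neddylation genes, on which ARIH1 and ARIH2 depend, were measured for 13 genes. Of these, 6 passed 1.5-fold downward and 1 upward, beside 25.9% of all genes each way, and the median was -0.52. Scaled by the spike-ins, 11 passed downward, beside 58.7% of all genes. CUL5, the cullin partner of ARIH2, was 2.78-fold lower at 3796 and 1366, and its 3 measured ratios ran from -1.74 to -0.72. RNF7, the RING subunit that pairs with CUL5, was 2.69-fold lower, with its 4 probe sets from -1.98 to -0.94. RBX1, the RING subunit of the other cullins, was 2.28-fold lower, CUL3 2.13-fold, NEDD8 itself 1.83-fold and CUL4B 1.52-fold. CUL1, the partner of ARIH1, had a ratio of -0.27 on its brightest probe set and -0.75 on its other. DCUN1D1, which promotes cullin neddylation, was the exception at 2.38-fold higher, with probe sets from -0.50 to 1.25.

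Of 10 measured substrates and partners reported for the members, 2 passed 1.5-fold upward and 1 downward, beside 25.9% of all genes each way, and the median was -0.11. Scaled by the spike-ins, 1 passed upward and 8 downward, beside 9.55% and 58.7% of all genes. CDKN1A, the p21 gene and an RNF144B substrate as well as a p53 target, had the largest ratio (3.10). BAX had -0.34 and -0.09, TP73 -0.10 and 0.024. EEF1A1, acted on by RNF14 at stalled ribosomes, was 2.15-fold higher at 32812 and 70651, in a gene with many processed copies. Its 6 probe sets ran from 0.13 to 1.11. RNF25 and GCN1 work with RNF14 at stalled ribosomes. RNF25 had a ratio of -0.82, and GCN1 had -0.26 on its brightest probe set and -1.26 on its other. EIF4E2, a target of ARIH1, had -0.19 on its brightest probe set, and its 4 probe sets ran from -1.26 to -0.19. BECN1 had 0.093 and -0.25.

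Against other ligases tied to p53, the RNF144B ratio of 5.49 was larger than each of the 6 measured. MDM2, which degrades p53, came next with 2.53 on its brightest probe set and 3.81 at most over 10. FBXO22, an F-box protein gene induced by p53, was 2.69-fold higher and higher on all 5 probe sets, from 0.29 to 1.43. COP1 had ratios of 0.62 and -0.39, and FBXW7 from 0.58 down to -0.58. RCHY1 and SIAH1 were lower on their brightest probe sets, at -0.96 and -0.65. The 4 probe sets of RCHY1 ran from -1.05 to 0.0054, and SIAH1 had -0.44 on its other measured probe set. In this list 3 passed 1.5-fold upward and 2 downward, beside 25.9% of all genes each way, and the median was 0.60. On the smallest absolute log2 ratio of each gene the counts were 0 and 0, beside 18.3% and 18.0% of all genes.

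**Figure D4:**
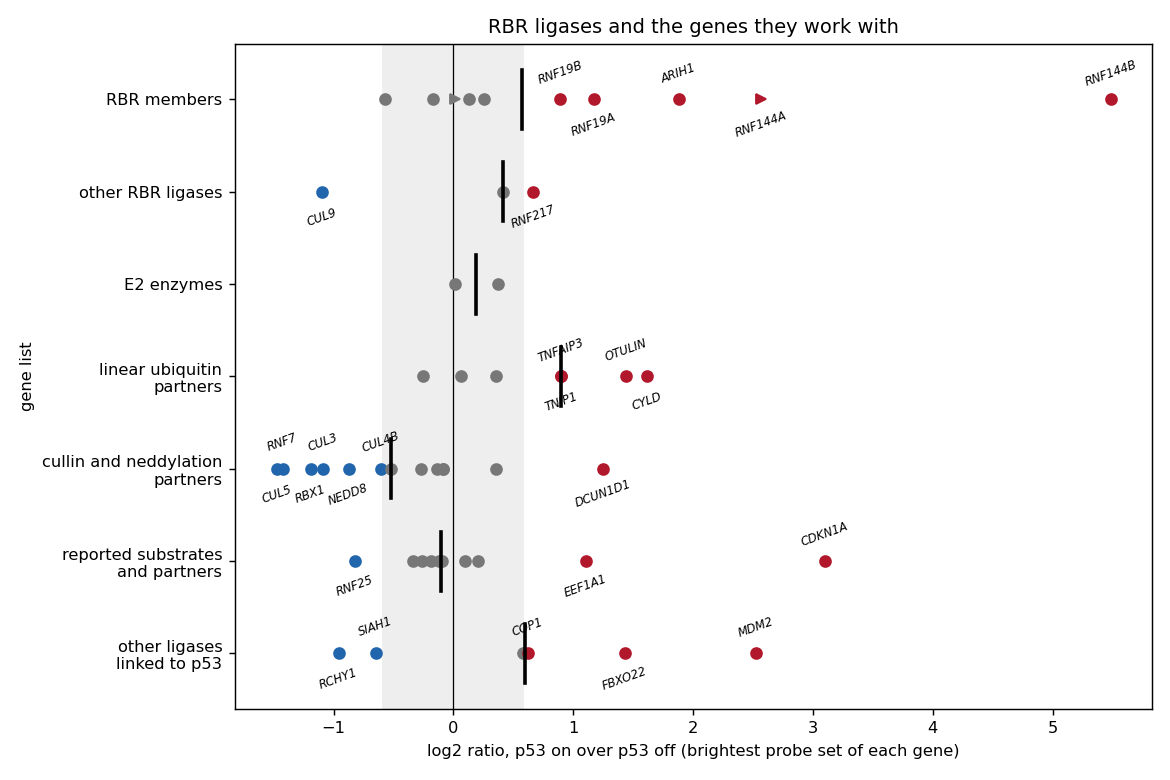
Log2 ratio (p53 on over p53 off) of the brightest probe set of each measured gene in the RBR set and 6 related lists, with black bars at list medians, named genes at least 1.5-fold higher (red) or lower (blue), and the grey band within 1.5-fold. The member median is 0.57, that of the cullin and neddylation list -0.52, and RNF144B at 5.49 is farthest right; the triangles are lower bounds.

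By the size of the ratio over the 2 arrays, the 5 measured genes nearest to RNF144B were ARG2, PRR9, NDRG1, REEP1 and AHNAK2, at distances of 0.013, 0.022, 0.044, 0.25 and 0.38 on the log2 scale. AHNAK2, a large scaffold protein gene, was 34.4-fold higher at 267 and 9182. Its other measured probe set gave a log2 ratio of only 1.47. The other measured probe sets of ARG2 and REEP1 gave 3.43 and 5.07, and PRR9 and NDRG1 had 1 measured probe set each. With 2 arrays, likeness in ratio is a shared size of difference and nothing more.

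**Figure D5:**
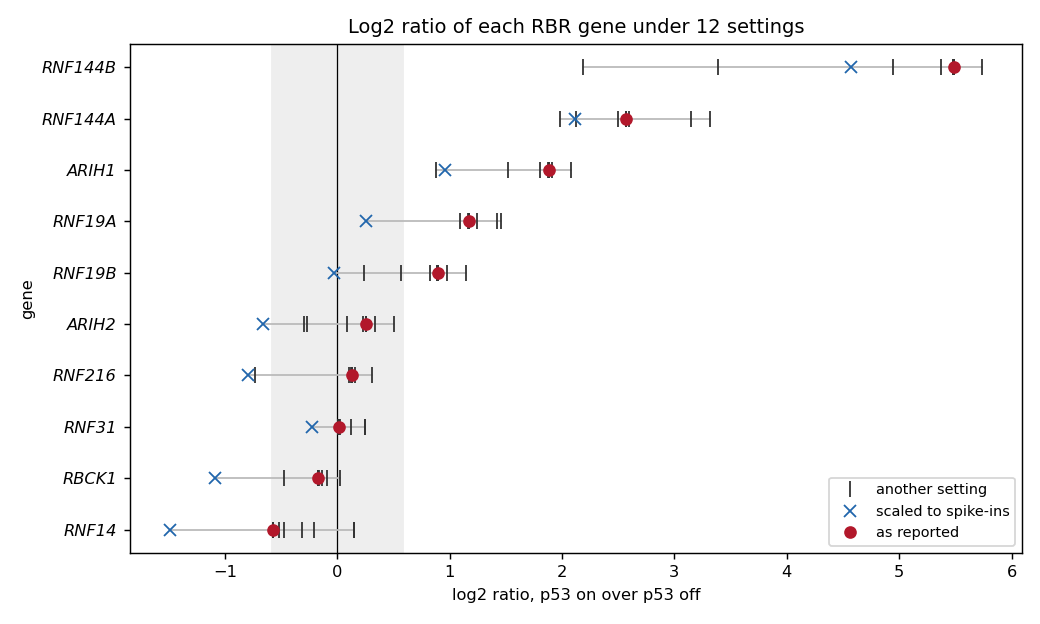
Log2 ratio (p53 on over p53 off) of each RBR gene as reported (red circles), under other processing settings (black ticks) and after scaling by the spike-ins (blue crosses), 12 settings in all; the grey band is within 1.5-fold. The plotted values, bounds included, ran from 2.18 to 5.74 for RNF144B, from 1.98 to 3.31 for RNF144A and from 0.88 to 2.08 for ARIH1, while RNF19B, ARIH2, RNF216 and RNF31 crossed 0 under the spike-in scaling. ARIH2, RNF216, RNF14 and RBCK1 also crossed 0 under at least 1 other setting.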

How the data were processed

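Gene expression of 1 p53 off and 1 p53 on culture of DLD-1 cells was read on 2 arrays. The authors deposited 1 linear signal intensity for each probe set, from MAS5 per the submitters' processing notes. The sources used here give neither its version nor its detection calls. The mean after leaving out 2% at each end was 500.1 on both arrays, so each had been scaled by 1 factor. No further normalization was added. The number of arrays limits the precision.

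Names came from GEO's annotation of the platform, with symbols updated by Entrez identifier to RefSeq (GRCh38.p14); 41037 of 41091 probe sets with 1 symbol matched, 1801 had several symbols and 11721 none. No build is stated for the probe sets, so the only coordinates printed are those of the RefSeq promoter windows. Of 54675 probe sets, 62 were controls. The signals were floored at the 50th percentile. Genes were counted at 1.5-fold and single genes at 2-fold, with no test. Named genes were the members, the 5 nearest RNF144B, the 3 highest and lowest numbered RNF genes, and neighbours of members. Genes of the fixed lists were also named, always with the highest and lowest ratio of each list. IRF9 was also named for its shared probe set. Members, lists and settings were chosen with earlier results of these data known; the TATA and GC box letters and base content were added after the sequences were seen. The gene that encodes p53 is not reported here, so its induction was not checked. Protein sequences were not used here. The procedure was tested on simulated data, with changes added only to genes far above the floor. The simulated noise was smaller than the SD between probe sets of a gene. Changes near the floor, and so the bounds, were not simulated. The 11 other settings used a floor at percentile 40 or 60, pseudocounts in place of the floor, median centring, quantile normalization, loess (span 0.3), spike-in scaling, and 3 choices among probe sets of a gene. Python 3.11.15, numpy 2.4.6, pandas 2.3.3, statsmodels 0.14.6 and matplotlib 3.10.9 were used.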

Additional observations from a re-analysis of the deposited data

Results flagged for a closer look

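Control probe sets, which enter the ratios of the members only through the spike-in scaling, carried a difference between the arrays. The beta-actin 3' signal was 7.29 times its 5' signal with p53 on, against 1.37 with p53 off. The ratio of p53 on over p53 off for the 18 hybridization spike-ins had a median of 1.89 and ran from 1.47 to 2.59. Both were noted because these probe sets lie outside the measurement and their values were above those of the p53 off array, for beta-actin the 3' over 5' ratio and for the spike-ins the signal. Their part in the split between probe sets of ARIH2, RBCK1 and RNF216 was not tested.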

How the results depend on the processing

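The log2 ratio of RNF144B was 5.49 as reported and at least 3.39 as the mean of its measured probe sets. It was at least 2.18 on the probe set with the smallest absolute log2 ratio and 4.57 with spike-in scaling. Scaling to the spike-ins shifted each ratio free of the floor by -0.92. It left 3 member genes higher and 4 lower, 14 member probe sets lower instead of 4, and a member median of -0.13 instead of 0.57, and of the ratios past 1.5-fold it reversed RNF19B on 213038_at (-0.028) and ARIH1 on 241658_at (-0.043). Smaller ratios also turned, on the brightest probe sets of ARIH2 (-0.66), RNF216 (-0.79) and RNF31 (-0.23), on 36564_at of RNF19B (-0.68), on 201824_at of RNF14 (-0.77) and on 216008_s_at of ARIH2 (-0.84). Some gene-level signs also turned without spike-in scaling. ARIH2 (0.25) had -0.27 as the mean over probe sets and -0.29 without probe sets named _x_at or _s_at. RNF14 (-0.57) had 0.15 without those probe sets and on its smallest absolute log2 ratio, and RBCK1 (-0.17) had 0.021 after loess. The mean over probe sets made 1 member gene lower, RNF216 (-0.73). Under the other settings the count of higher members was 4 or 5.

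Counts in the related lists were small and shifted easily. Under spike-in scaling the cullin list had 0 higher and 11 lower, linear ubiquitin partners 1 higher and 2 lower, substrates 1 higher and 8 lower, E2 enzymes 1 lower, other RBR ligases 0 higher and ligases linked to p53 1 higher. Of all genes, 9.55% were higher and 58.7% lower under that scaling. With the smallest absolute log2 ratio of each gene, linear ubiquitin partners had 1 higher and substrates 1. Under that choice the cullin list and other RBR ligases had 0 higher, and ligases linked to p53 0 higher and 0 lower. With the mean over probe sets, the cullin list and other RBR ligases had 0 higher, substrates 2 lower and ligases linked to p53 0 lower. Without shared-sequence probe sets (_x_at, _s_at), linear ubiquitin partners had 2 higher and 1 lower, substrates 0 higher and ligases linked to p53 0 lower. After loess, E2 enzymes had 1 higher, other RBR ligases 2, substrates 1 and ligases linked to p53 1 lower. After quantile normalization, other RBR ligases had 0 higher, substrates 1 higher and ligases linked to p53 1 lower. With a pseudocount equal to the floor, other RBR ligases had 0 higher. Apart from spike-in scaling, the cause of each shift was not tested.

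RNF31 could not be measured with the floor at the 60th percentile, after quantile normalization or without shared-sequence probe sets. No paired analysis was possible because each condition has 1 array, and no replicate could be left out.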

Other observations

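The genes next to the members on their chromosomes were read in the same way. Of 20 nearest protein-coding neighbours, 14 were measured, of which 4 passed 1.5-fold upward and 3 downward, beside 25.9% of all genes each way, and the median log2 ratio was -0.27. Beside RNF144B, DEK, a chromatin protein gene, had signals of 11265 (p53 off) and 8282 (p53 on), a ratio of -0.44. ID4, on the other side, an inhibitor of helix-loop-helix factors, was dim at 64.5 and 190.1 on its brightest probe set, a ratio of at least 0.76, and the lowest of its 3 measured probe sets gave -0.36. Beside RNF144A, ID2 had log2 ratios of 0.48 and 1.46, and RSAD2, an interferon-induced antiviral gene, was under the floor on both arrays. Both neighbours of RNF19A were higher, SPAG1 by 1.82-fold (2275 and 4141) and ANKRD46 by 4.63-fold (787 and 3641), each on 1 probe set. Beside RNF216, FSCN1, the gene of the actin bundler fascin, had ratios of 1.94 and -0.31. The neighbours TMEM54, GNPDA1 and IRF9 were lower, at -0.95, -0.74 and -0.67.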
